A study of Mus musculus with 22 samples.

Results

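Of 15 left ventricular RNA-seq libraries collected 2 weeks after surgery, 4 held large amounts of transcripts that belong to the atria. These 4 libraries were chosen by their level of Myl7, the atrial isoform of the myosin regulatory light chain, at 300 TPM or more, where TPM is transcripts per 1000000, a level scaled for transcript length and library total. They were VCP TG sham 3 and VCP TG sham 4 (the number is the replicate), the library labelled WT TAC 1, and VCP TG TAC 2. They are called Myl7-rich below, and values of the Myl7-rich libraries are given in this order. They make up 4 of the 15 libraries of the 2-week table and 4 of the 22 libraries of the series. The threshold lay in a gap: the lowest Myl7-rich library held 394 TPM and the highest of the 11 other libraries, VCP TG TAC 1, held 154 TPM. Myl7 values chose the libraries, so the differences between Myl7-rich and other libraries are given as descriptions, without a test.

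The mice were of the FVB strain and 3 to 5 months old, and were wild type (WT) or carried a transgene of VCP (VCP TG), an ATPase that extracts proteins from complexes and membranes. The promoter of the transgene was not stated in the labels, and no source says whether each library came from a separate animal. Sham operations and transverse aortic constriction (TAC), which narrows the aorta and loads the left ventricle with pressure, gave 15 libraries at 2 weeks: 4 from WT and 4 from VCP TG after sham surgery, and 4 labelled WT and 3 VCP TG after TAC. A separate table held 7 TAC libraries from 5 weeks, 4 labelled WT and 3 labelled VCP TG. The labelled tissue was left ventricle in all 22 libraries, and the ventricular light chain Myl2 stood at 2293 TPM or more in each of them.

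Atrial and ventricular muscle share most of the contractile machinery but differ in several isoforms. Atrial myocytes use the light chains encoded by Myl7 and Myl4, restrain the calcium pump with sarcolipin (Sln), and store the natriuretic peptide encoded by Nppa in granules, whereas ventricular myocytes use Myl2 and Myl3 and restrain the pump with phospholamban (Pln). Nppa is also a classical marker of ventricular load, because stressed ventricular muscle switches it back on, so atrial tissue in a ventricular sample and a response to TAC raise the same transcript. In bulk tissue, more cells of a type and more RNA per cell cannot be told apart.

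Several measures of the whole table bear on these values. The 13 mitochondrially encoded genes took 27.9% of all TPM in VCP TG sham 3 and 72.9% in VCP TG sham 4, the lowest and the highest shares of the 15 libraries, and both of these are Myl7-rich. Genes at 1 TPM or more numbered 15613 and 11629 in these 2 libraries, against 12630 to 16813 in the 11 other libraries. Vcp, the transgene's gene, checks the genotype labels, and the library labelled WT TAC 1 held 119 TPM, against 47.7 to 50.3 in the other 3 WT TAC libraries and 125 to 151 in the VCP TG TAC libraries. After TPM were rescaled without the mitochondrial genes, Vcp stood at 216 to 271 in the 4 Myl7-rich libraries and at 106 to 153 in the other 7 libraries labelled WT, so each Myl7-rich library lay above those 7. Of the 4 other libraries labelled VCP TG, 3 held 226 to 395, whereas VCP TG sham 1, at 156, lay next to WT sham 2 at 153 and did not stand apart from the libraries labelled WT. In the WT TAC group a high Myl7 and a high Vcp therefore fall in the same library and cannot be told apart.

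Myl7 itself (chromosome 11, minus strand) ranged over more than 3 orders of magnitude. It stood at 9.11, 0.773, 55.6 and 4.69 TPM in WT sham 1 to 4, and at 0.756, 37.9, 2269 and 394 TPM in VCP TG sham 1 to 4. In the TAC groups it stood at 1546, 3.34, 13.2 and 30.3 TPM in the libraries labelled WT TAC 1 to 4, and at 154, 951 and 1.39 TPM in VCP TG TAC 1 to 3. WT sham was the 1 group without a Myl7-rich library. The 11 other libraries were themselves uneven, with 5 below 5 TPM and VCP TG TAC 1 far above the rest.

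The other chosen markers followed in the same libraries. Myl4, the atrial essential light chain, measured 1813, 193, 1039 and 465.7 TPM in the Myl7-rich libraries, against 1.10 to 86.5 TPM elsewhere. Sln stood at 1493, 452, 1620 and 627 TPM there, against 0 to 90.3 TPM elsewhere. In each of these genes the highest of the other 11 libraries was again VCP TG TAC 1, and neither gene overlapped between the 4 libraries and the 11.

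**Figure D1:**
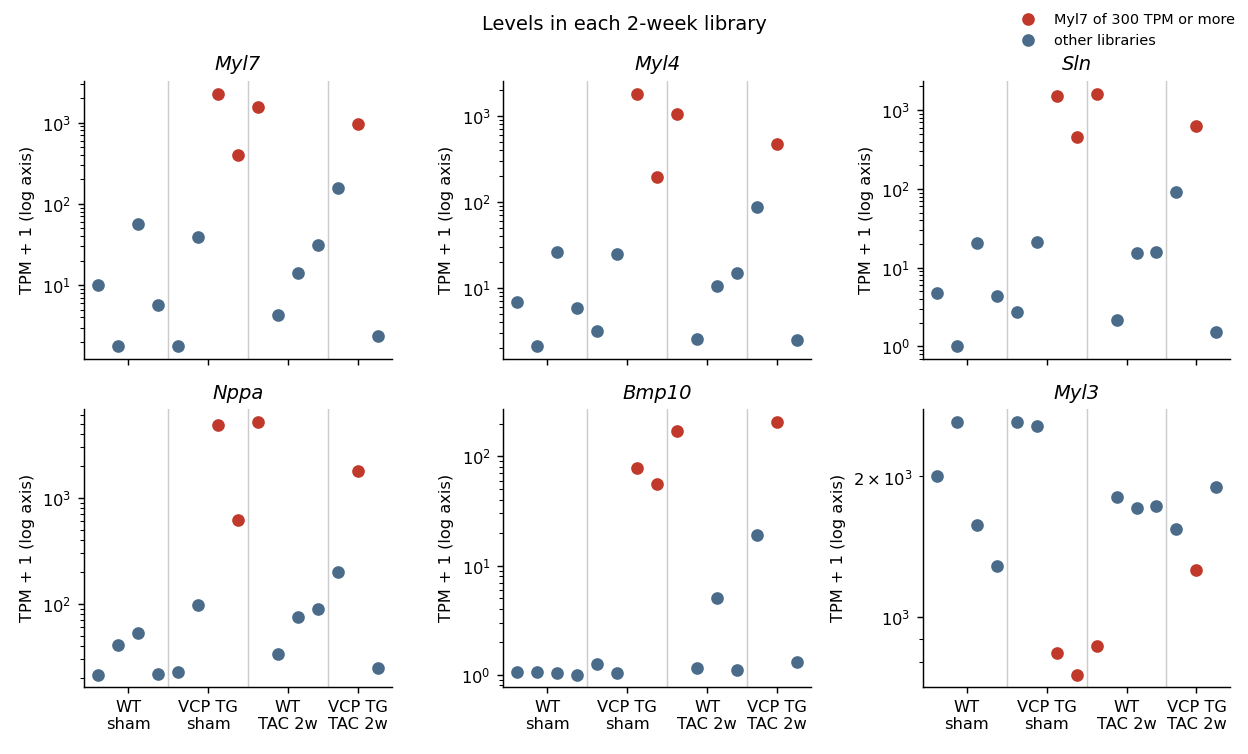
Level of 6 genes in each of the 15 2-week libraries, in TPM + 1 on a log axis, with libraries ordered by group and replicate and 1 point per library. Red points are the 4 libraries with Myl7 of 300 TPM or more; they lie above all other libraries for the 5 atrial genes shown, and Myl3, the ventricular light chain, is below the rest of the group in each of them.

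To ask which genes travel with Myl7, each Myl7-rich library was compared with the other libraries of its own labelled group. A gene was counted as higher when, in each of the 3 groups that held a Myl7-rich library, every Myl7-rich library lay above every other library of the group, and as lower in the reverse case. Of the 15540 genes that reached 1 TPM in 3 or more libraries, 173 were higher (1.11%) and 759 were lower (4.88%). The contrast is the one that chose the libraries, so nothing is read from these shares. The counts depended on the scale: after rescaling without the mitochondrial genes 726 genes were higher (3.85%) and 443 lower (2.35%), of 18866 tested, and after quantile normalization 665 were higher (4.28%) and 791 lower (5.09%). Of the 173 higher genes, 141 were higher on all 3 scales, and of the 759 lower genes 175 were lower on all 3.

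The size of the difference sets a small group of genes apart from the rest. A mean within-group difference on the log2(TPM + 1) scale, Myl7-rich minus others and averaged over the 3 groups, was computed for every gene, and its median over all 15540 genes was -0.08. It was 6.74 for Hamp, 6.71 for Sln, 6.48 for Myl7, 6.06 for Myl4, 5.92 for Bmp10, 5.43 for Nppa and 5.30 for Mybphl. Below these 7 came Sbk3 at 4.21, Mlana at 4.13, Dkk3 at 3.97 and Fgf12 at 3.32. In 29 genes the lowest Myl7-rich library lay at least 1.5-fold above the highest other library of the group, on TPM + 1, in each of the 3 groups. In 3 genes the gap was as large in the other direction. Of the 173 higher genes, 36 passed the filter on low values only through the Myl7-rich libraries, as did 922 of all genes tested. The filter itself favoured a difference in the 36, so none is read as a result. Among the 25 genes with the largest positive differences, Bmp10, Mlana, Tmem163, Cxcl13 and Cd207 are of this kind.

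Nppa (chromosome 4, plus strand) was the most abundant of these genes in 3 of the 4 libraries, and Hamp was in VCP TG sham 4. It stood at 4864 and 612 TPM in VCP TG sham 3 and 4, 5174 TPM in the library labelled WT TAC 1 and 1781 TPM in VCP TG TAC 2. Among the other libraries it stood at 20.4, 39.9, 52.4 and 20.6 TPM in WT sham, 21.7 and 95.5 TPM in VCP TG sham 1 and 2, 32.5, 74.5 and 88.6 TPM in WT TAC 2 to 4, and 198 and 23.6 TPM in VCP TG TAC 1 and 3. The ranges did not overlap. In the 4 Myl7-rich libraries Nppa was 1.55 to 3.35 times the level of Myl7, and the split into Myl7-rich and other libraries took up 82.8% of its spread within groups, against a median of 5.27% over all genes.

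Mybphl, which encodes a myosin binding protein of atrial muscle, stood at 273, 33.1, 190 and 76.9 TPM in the 4 Myl7-rich libraries, and at 18.3 TPM or less elsewhere. Dkk3, a secreted glycoprotein of the Dickkopf family, stood at 93.8, 11.03, 45.0 and 39.3 TPM in these libraries and at 0.448 to 5.90 TPM in the others. Gja5, the gap junction protein connexin 40 of atrial muscle and the conduction system, had a mean within-group difference of 1.32, and Kcnj3, a subunit of the acetylcholine-gated potassium channel, one of 1.55. Stard10 stood at 190 TPM in VCP TG sham 3 and at 21.9 to 64.3 TPM in the other 3 Myl7-rich libraries.

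The count of the atrial list depended on the scale. On TPM as deposited, 12 of its 21 genes were higher in every Myl7-rich library (Myl7, Myl4, Sln, Nppa, Mybphl, Bmp10, Dkk3, Kcnj3, Gja5, Nr2f1, Hamp and Stard10), 0 were lower, and the median of the mean within-group differences was 1.55, against -0.08 over all genes. After rescaling 15 of the 21 were higher, with Tbx5, Cacna1d and Sbk2 added, and after quantile normalization 16 were, with Kcnj5 as well, and Kcnk3 was lower. Of all genes 1.11% were higher as deposited, 3.85% after rescaling and 4.28% after quantile normalization. Bmp10 passed the filter on low values only through the Myl7-rich libraries. The summed level of the list was 2716 to 12899 TPM in the Myl7-rich libraries and 204 to 951 TPM in the others. Tbx5, a transcription factor of atrial and left ventricular development, stood at 45.9, 8.84, 21.8 and 21.7 TPM in the 4 Myl7-rich libraries, and VCP TG sham 4 fell short of VCP TG sham 1 at 9.15 TPM. After rescaling Tbx5 stood at 32.6 TPM in VCP TG sham 4, above VCP TG sham 1 and VCP TG sham 2, which held at most 16.2 TPM, and it was higher in every Myl7-rich library on both other scales. Pam, the enzyme that amidates peptides and a major membrane protein of atrial granules, stood at 1198, 303 and 210 TPM in 3 of the 4 but at 75.9 TPM in VCP TG sham 4, the lowest of the 15 libraries. After rescaling without the mitochondrial genes, Pam in VCP TG sham 4 was close to VCP TG sham 1 and 2, at 280 TPM against 285 and 282 TPM. The potassium channel genes Kcna5 and Kcnk3 had mean within-group differences of -0.46 and -0.71.

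Relative to Myl7, Bmp10 and Hamp were uneven over the 4 libraries. Bmp10 passed the filter on low values only through the Myl7-rich libraries, so its difference from the other libraries is not read as a result. Bmp10, a growth factor made in the right atrium of the adult heart, was at 0 to 0.298 TPM in 9 of the other 11 libraries, at 4.06 TPM in WT TAC 3 and at 18.0 TPM in VCP TG TAC 1. It stood at 77.7, 55.1, 171 and 206 TPM in the 4 Myl7-rich libraries. Relative to Myl7 it was 0.0342 in VCP TG sham 3 and 0.110 to 0.216 in the other 3. Hamp, which encodes the iron-regulating peptide hepcidin, stood at 305, 810, 820 and 1059 TPM in the same order and at 0.134 of Myl7 in VCP TG sham 3, against 0.531 to 2.06 in the other 3. Among the 4, the library with the most Myl7 thus held the least Bmp10 and Hamp per unit of Myl7, a value read from 1 library with no replicate check.

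**Figure D2:**
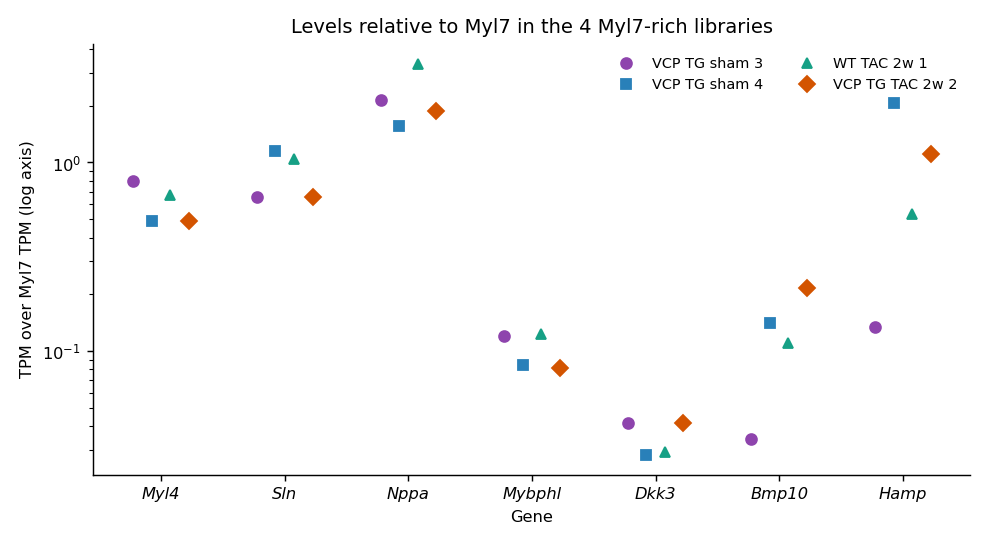
Level of 7 genes divided by the level of Myl7 in each Myl7-rich library, on a log axis, with 1 point per library. The ratios of Myl4, Sln, Mybphl and Dkk3 vary less over the 4 libraries than those of Bmp10 and Hamp, and Bmp10 and Hamp are lowest in VCP TG sham 3, at 0.0342 and 0.134 of Myl7.

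To rank the genes by likeness to Myl7, the level of each gene in a Myl7-rich library above the mean of the others of its group was divided by the same excess for Myl7, and the coefficient of variation of this ratio was taken over the 4 libraries. The 10 higher genes of at least 1 TPM with the smallest variation included Podn, Rgs6, Fgf12, Man1b1, Zfp462, Aff2, Pla2g7 and Ier3ip1. Podn, a secreted leucine-rich proteoglycan, had the smallest, 0.0659, with an excess of 0.0134 to 0.0154 of that of Myl7. For Mybphl it was 0.235, for Myl4 0.256, for Sln 0.300 and for Nppa 0.359, whereas it was 0.612 for Bmp10 and 0.892 for Hamp. Because 4 libraries give each ratio, this order is a description of these libraries.

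The promoters of the genes that stand for the main patterns are shown to compare what lies just before their start sites. Nppa varied less relative to Myl7 over the 4 libraries than Bmp10 and Hamp did. Each sequence is the 250 bases before the start site in the RefSeq annotation, on the gene's own strand and on build GRCm38.p6. Capitals mark matches to 4 motifs searched on both strands, which do not overlap here. AGATAA is a form of the motif of GATA factors. Other forms, such as TGATAA, were not searched and are left unmarked, as in the Myl7 and Nppa windows. The letters AGGTGT are a T-box motif. The letters AGGTCA are a nuclear receptor motif. The fourth is the CArG box of serum response factor, searched by its consensus, which matches the same bases on either strand.
Myl7 (chr11:5898783-5899032, minus strand): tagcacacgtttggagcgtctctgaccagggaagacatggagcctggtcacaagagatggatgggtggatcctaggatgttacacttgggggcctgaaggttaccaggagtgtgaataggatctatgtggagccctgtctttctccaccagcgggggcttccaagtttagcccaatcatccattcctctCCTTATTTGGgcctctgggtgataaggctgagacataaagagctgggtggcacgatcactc
Nppa (chr4:148000472-148000721, plus strand): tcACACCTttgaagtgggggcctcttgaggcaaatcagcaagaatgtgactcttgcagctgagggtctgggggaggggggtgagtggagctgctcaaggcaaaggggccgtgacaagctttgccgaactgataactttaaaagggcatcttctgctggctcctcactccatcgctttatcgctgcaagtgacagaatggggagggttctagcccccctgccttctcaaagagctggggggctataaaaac
Bmp10 (chr6:87428744-87428993, plus strand): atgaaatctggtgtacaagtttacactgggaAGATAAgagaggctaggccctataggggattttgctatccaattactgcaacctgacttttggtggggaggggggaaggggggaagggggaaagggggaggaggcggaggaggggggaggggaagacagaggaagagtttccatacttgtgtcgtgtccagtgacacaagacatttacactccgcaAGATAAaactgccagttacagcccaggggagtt
Hamp (chr7:30944030-30944279, minus strand): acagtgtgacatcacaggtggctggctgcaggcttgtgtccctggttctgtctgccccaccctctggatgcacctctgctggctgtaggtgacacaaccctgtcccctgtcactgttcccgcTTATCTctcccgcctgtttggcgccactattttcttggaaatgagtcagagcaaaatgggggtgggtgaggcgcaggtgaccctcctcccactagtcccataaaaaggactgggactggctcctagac

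A CArG box lay in the Myl7 window, 1 AGGTGT on the minus strand in that of Nppa, 2 AGATAA in that of Bmp10 and 1 AGATAA on the minus strand in that of Hamp. Of the 25 genes with the largest positive differences, 20 had a RefSeq promoter. AGATAA was in 5 of the 20 (Bmp10, Cd207, Hamp, Hamp2 and Mybphl), against 9.99% of all 32851 promoters, and a CArG box in 3 (Myl7, Myl9 and Tmem163), against 1.47%. AGGTGT was in 1 (Nppa), against 11.8% of all promoters, and AGGTCA in 1 (Cxcl13), against 14.0%. The 20 genes come from the contrast that chose the libraries, so no enrichment is read from these shares. Among the genes with a match, Bmp10, Cd207, Tmem163 and Cxcl13 passed the filter on low values only through the Myl7-rich libraries. Hamp and Hamp2 lie close together on chromosome 7. The 20 genes were counted with 1 promoter each, whereas the 32851 promoters were not reduced to 1 per gene. A match is a description of letters and not a site shown to be bound.

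The remaining genes among the 25 with the largest positive differences have known roles in several cell types. Myl9, a light chain of smooth muscle and non-muscle cells, stood at 194, 49.6, 197 and 69.9 TPM in the 4 Myl7-rich libraries, against 18.2 to 33.6 TPM elsewhere. Myl1, a light chain best known from fast skeletal muscle, stood at 467, 204, 634 and 265 TPM, against 65.1 to 155 TPM elsewhere. Gpx3, a secreted glutathione peroxidase, stood at 753, 289, 1012 and 497 TPM, against 92.7 to 188 TPM elsewhere. Mlana, a melanosome protein, stood at 8.15 to 45.3 TPM in the 4 libraries and at 1.29 TPM or less elsewhere, and Cd207, the Langerhans cell lectin, at 1.38 to 7.95 and at 0.675 TPM or less. Mlana and Cd207 passed the filter on low values only through the Myl7-rich libraries, so these differences are not read as a result. Rps23-ps1, a processed pseudogene whose reads may belong to Rps23, is uncertain. The others were Tmem163, Ahsg, Cacna2d2, Hamp2, Cxcl13, Plagl1 and Mfap4, and all 25 genes were higher on the 3 scales.

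Some ventricular transcripts were lower where Myl7 was high, but by much less. Of 12 ventricular myocyte genes, 4 were lower in every Myl7-rich library (Myl2, Myl3, Irx4 and Kcnip2), where 4.88% of all genes were, and 0 were higher. The median mean difference of the 12 was -0.46. After rescaling 1 of the 12 was lower, where 2.35% of all genes were. After quantile normalization 2 were (Irx4 and Kcnip2), where 5.09% of all genes were. Myl3 stood at 838, 752, 867 and 1258 TPM in the 4 Myl7-rich libraries, against 1286 to 2615 TPM in the others. Kcnip2, a subunit of the fast outward potassium current, stood at 22.7, 14.1, 15.9 and 19.4 TPM, against 24.7 to 81.3 TPM. After rescaling without the mitochondrial genes Kcnip2 was still lower in every Myl7-rich library, whereas Myl2, Myl3 and Irx4 each overlapped, Myl2 with 13810 TPM in VCP TG sham 4 against 12902 and 14601 TPM in VCP TG sham 1 and 2.

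Of the 15 named lower genes, 10 were lower on all 3 scales. Bdh1, which encodes the ketone body enzyme 3-hydroxybutyrate dehydrogenase, had a difference of -1.74, with 9.09, 6.95 and 7.94 TPM in VCP TG sham 3 and 4 and the library labelled WT TAC 1. Bdh1 held 26.9 to 66.2 TPM in the other sham and WT TAC libraries, but 19.0, 14.6 and 17.02 TPM in VCP TG TAC 1 to 3, where the difference was -0.28. Ptgds, a prostaglandin D synthase, had -1.53 and Myot, a Z-disc protein, -1.37. Irx1, a transcription factor of the ventricular septum, differed by -0.91 to -1.40 in the 3 groups. Mean differences of the other lower genes, Dgat2, Egln3, Sh3rf2, Cpxm2, Scube2, Mgst3, Klk1b26 and Fhl2, ran from -1.16 to -1.02.

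**Figure D3:**
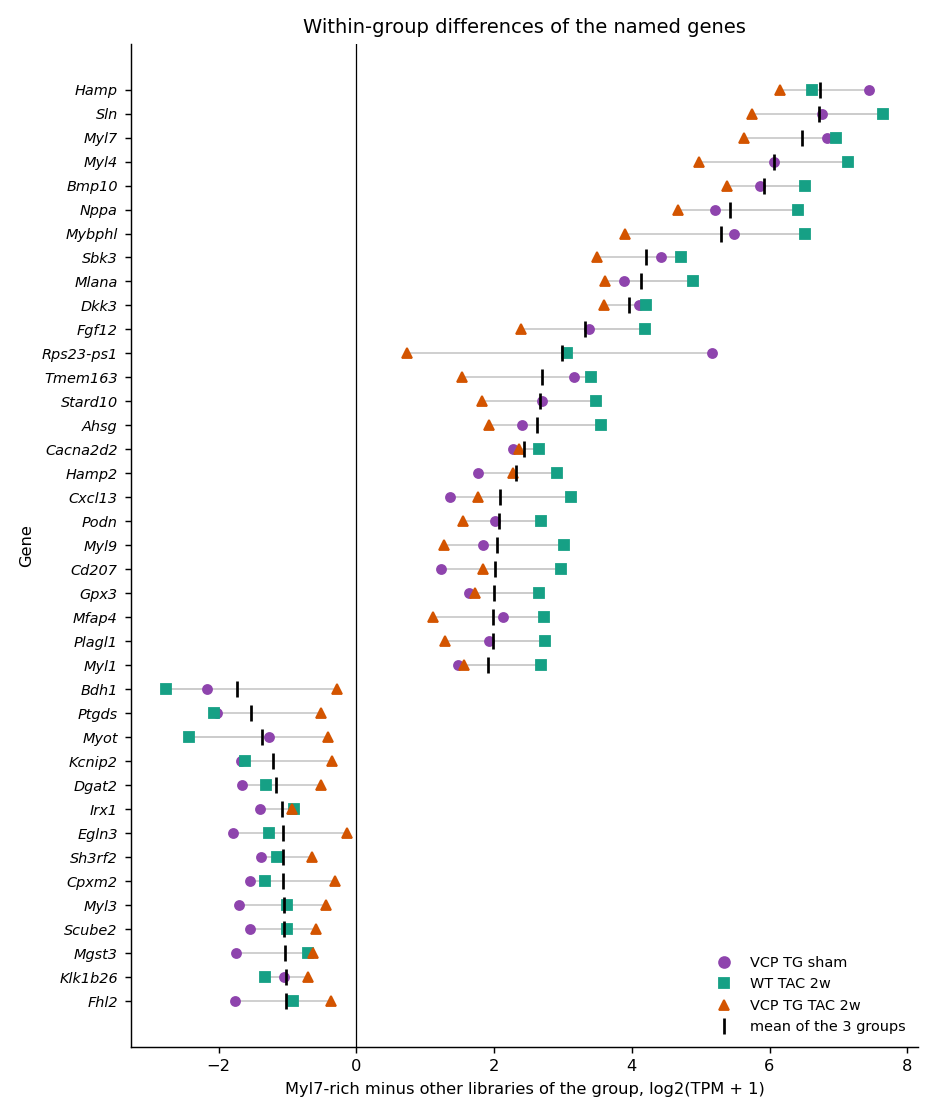
Difference between Myl7-rich and other libraries of the same group, on the log2(TPM + 1) scale, for the 25 genes with the largest positive and 14 of the 15 with the largest negative mean difference; symbols are the 3 groups that hold a Myl7-rich library and the black bar is the mean. The leading atrial genes reach means of 5.30 to 6.74, the means of the lower genes drawn reach no further than -1.74, and each of them differs less in VCP TG TAC than in VCP TG sham.

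Markers of tissues that adjoin the atria were examined beside the atrial genes. The counts are on TPM as deposited unless another scale is named, to be read beside 1.11% of all genes higher and 4.88% lower. Of 8 mesothelium and epicardium genes, 3 were higher in every Myl7-rich library (Upk3b, Upk1b and Krt18), 6 were after rescaling (with Msln, Krt19 and Aldh1a2) and 4 after quantile normalization (with Msln). The summed level of the list was 9.71 to 51.2 TPM in the Myl7-rich libraries and 5.98 to 17.2 TPM in the others. Upk3b, a uroplakin of mesothelium, stood at 5.91, 2.41, 15.6 and 10.6 TPM in the 4 Myl7-rich libraries, and at 0 to 4.08 TPM in the others. Of 5 valve genes, Cytl1 and Fmod were higher on all 3 scales, with summed levels of 30.9 to 89.6 and 11.2 to 155 TPM. Of 8 fibroblast genes, Tcf21 and Dcn were higher, with summed levels of 528 to 1312 and 427 to 763 TPM, and Dcn overlapped after rescaling. Pdgfra, Dpt and Col15a1 were higher on both other scales, so that 4 of the 8 were higher after rescaling and 5 after quantile normalization.

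None of 8 smooth muscle or 9 macrophage and lymphocyte genes was higher or lower in every Myl7-rich library on TPM as deposited. On both other scales the smooth muscle actin Acta2 was higher, and so were the macrophage genes Csf1r, Mrc1 and Cd163, with Lyz2 and C1qb added after quantile normalization. None of 8 housekeeping genes was higher or lower on any of the 3 scales. Of 12 endothelial genes, Kdr was lower on all 3 scales. Plvap and Npr3 were higher on both other scales, Tie1 was lower after rescaling and Emcn was higher after quantile normalization. Of 9 tested genes of left, right and venous atrial regions, 3 were higher (Bmp10, Hamp and Cpne5) and 2 lower (Tbx3 and Smoc2) on all 3 scales, with Vsnl1 added to the higher ones on both other scales. Bmp10 and Hamp are also counted in the atrial list above, and Bmp10 passed the filter on low values only through the Myl7-rich libraries. Of the sparse lists, 1 of 5 nerve genes was higher (Dbh) and 1 of 3 adipocyte genes was lower (Cidea) on TPM as deposited, and both genes overlapped on both other scales. Of 4 skeletal muscle genes 0 were higher or lower as deposited, and Tnnt3 was higher on both other scales. The 1 lung and thymus gene tested overlapped on all 3.

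Red cell genes were high in VCP TG sham 3 alone, where Hbb-bs, a beta globin, stood at 936 TPM, against 6.42 to 125 TPM in the other 14 libraries, and the summed level of the 6 red cell genes was 2185 TPM against at most 282 TPM. VCP TG sham 3 also held the largest share of TPM on gene identifiers without a symbol, 25.9%, against 1.90% in VCP TG sham 4. Whether these levels bear on the atrial genes was not tested.

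Load genes were examined next, since the study compares TAC with sham and some transcripts, such as Nppa, belong both to atrial muscle and to the response to load. Of 25 tested genes of the load and fetal programme, 1 was higher in every Myl7-rich library (Nppa) and 2 were lower (Xirp2 and Kcnip2), with a median of -0.11, where 1.11% of all genes were higher and 4.88% lower. Xirp2 overlapped on both other scales, Kcnip2 was lower on all 3, and Acta2 and Fhl1 were higher on both others. Of 21 tested matrix and growth factor genes, 3 were higher on TPM as deposited (Timp1, Comp and Mfap4), 0 were lower and all 21 had a mean difference above 0, with a median of 0.64 against -0.08 over all genes. After rescaling 9 of the 21 were higher, where 3.85% of all genes were, and after quantile normalization 8 were, where 4.28% were. Col1a1, Col1a2, Postn, Fn1, Ccn2, Timp1, Comp and Mfap4 were higher on both of these scales, and Lgals3 after rescaling. Mfap4, a matrix glycoprotein, stood at 48.5, 9.87, 57.2 and 12.6 TPM in the 4 Myl7-rich libraries, against 2.84 to 13.6 TPM in the others.

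On TPM as deposited, many load genes were highest in the 2 libraries with the most Myl7. VCP TG sham 3 and the library labelled WT TAC 1 were singled out after their values were seen, as the libraries above 1500 TPM of Myl7. Both lay above all 13 other libraries for 774 of 15540 genes (4.98%), and for 17 of the 46 load genes tested (37.0%). The 17 included Nppa, Nppb, Acta2, Ankrd1, Fhl1, Col1a1, Col1a2, Col3a1, Col8a1, Postn, Fn1, Ccn2, Loxl1, Tgfb2, Mfap4 and Meox1. The same held for 12 of 21 atrial genes, 6 of 8 fibroblast genes, 4 of 9 macrophage and lymphocyte genes (Csf1r, Mrc1, Cd163 and C1qa) and 3 of 12 endothelial genes (Npr3, Plvap and Vwf). Myl7, which singled out the 2 libraries, is among the 12 atrial genes. These counts were made on TPM as deposited only, where VCP TG sham 3 had the lowest mitochondrial share, 27.9%.

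Deposited TPM of single load genes show how far these 2 libraries stood out. Nppb, the gene of B-type natriuretic peptide, stood at 407 TPM in VCP TG sham 3 and 345 TPM in the library labelled WT TAC 1, against 30.4 to 167 TPM elsewhere, with 50.8 and 86.1 TPM in the other 2 Myl7-rich libraries. Ccn2, a matricellular growth factor also called CTGF, stood at 435 and 237 TPM, against 10.5 to 71.9 TPM elsewhere. Col1a1, the main fibrillar collagen chain, stood at 33.9 and 41.9 TPM, against 5.92 to 15.1 TPM elsewhere. Ankrd1, a stretch-responsive repeat protein of the sarcomere, stood at 1587 and 1840 TPM, against 345 to 1077 TPM elsewhere. For each of these 4 genes, on TPM as deposited, VCP TG sham 4 and VCP TG TAC 2 lay within the range of the 11 other libraries or, for Col1a1, VCP TG TAC 2 lay above it at 15.1 TPM. After rescaling, Ccn2 stood at 109 TPM in VCP TG sham 4, above 70.9 and 65.3 TPM in VCP TG sham 1 and 2. It stood at 96.9 TPM in VCP TG TAC 2, above 40.5 and 32.6 TPM in VCP TG TAC 1 and 3. Both values lay below WT sham 3 and 4, which are not Myl7-rich and held 143 and 124 TPM of rescaled Ccn2. Rescaled Col1a1 stood at 37.5 TPM in VCP TG sham 4 and 31.3 TPM in VCP TG TAC 2, above all 11 other libraries, which held at most 28.0 TPM. Rescaled Ankrd1 was highest in the library labelled WT TAC 1, at 4134 TPM. In VCP TG sham 3 it stood at 2202 TPM, below VCP TG sham 4 at 2246 TPM and VCP TG sham 2, which is not Myl7-rich, at 2289 TPM. Rescaled Nppb stayed highest in VCP TG sham 3 and the library labelled WT TAC 1, at 565 and 775 TPM, against at most 348 TPM elsewhere.

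The question for the labelled comparison of WT TAC with WT sham was how much of a load gene's difference rested on the Myl7-rich libraries, of which this comparison holds 1. In the limma fit of all 15 libraries, on log2(TPM + 1) with Benjamini-Hochberg adjustment, 0 of 15540 genes passed an adjusted p of 0.05 (0% higher and 0% lower, smallest adjusted p = 0.066), with 1773 genes at an unadjusted p under 0.05. Nppa differed by 2.54 ± 1.96 (SE, adjusted p = 0.631). Without the 4 Myl7-rich libraries it differed by 0.94 ± 0.81 (adjusted p = 0.503), and with Myl7-rich as a covariate by 1.19 ± 0.84 (adjusted p = 0.661). Nppa passed the test in none of these fits, and its value was lower by 1.602 on the log2 scale without the 4 libraries than with them.

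Of the 45 load genes tested both with all 15 and with the 11 other libraries, 13 changed sign in this comparison, against 6.98% of the 14618 genes tested in both. WT sham holds no Myl7-rich library, so each change of value here came from leaving out the library labelled WT TAC 1. That library also held 119 TPM of Vcp against 47.7 to 50.3 in its group, so its atrial transcripts and a doubtful genotype label cannot be told apart. Col1a1 went from 0.26 ± 0.50 to -0.27 ± 0.25, Col3a1 from 0.50 ± 0.52 to -0.04 ± 0.32, Postn from 0.28 ± 0.43 to -0.13 ± 0.27 and Nppb from 0.25 ± 0.72 to -0.32 ± 0.52. Kcnip2 went the other way, from -0.24 ± 0.48 to 0.16 ± 0.30. Acta2, Fhl1, Col1a2, Fn1, Timp1, Lgals3, Comp and Fstl1 changed sign as well. Ccn2 moved from -0.31 ± 0.99 to -1.21 ± 0.35 and Mfap4 from 1.04 ± 0.79 to 0.36 ± 0.35. None of these 15 genes passed the test with or without the 4 libraries, and the smallest adjusted p among them was 0.0575, for Ccn2.

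The 4 load genes whose call changed passed the test without the Myl7-rich libraries and not with all 15. Myh7, the beta myosin heavy chain and a classical fetal gene, stood at 404, 396, 489 and 356 TPM in WT sham and at 174, 232, 174 and 173 TPM in the libraries labelled WT TAC 1 to 4, so the groups did not overlap and the Myl7-rich library lay with its group. It fell by 1.09 on the log2 scale without the 4 libraries (SE 0.19, limma adjusted p = 0.0109), and differed by -1.12 ± 0.34 with them (adjusted p = 0.327). Myh6, the alpha myosin heavy chain, fell by 0.68 (adjusted p = 0.0383), Nmrk2, a nicotinamide riboside kinase, by 0.90 (adjusted p = 0.0314) and Xirp1, an actin-binding protein of the intercalated disc, by 1.02 (adjusted p = 0.0377). With rescaled TPM and without the 4 libraries, Myh7 still passed (-0.87, adjusted p = 0.0400), and Myh6 (0.132), Nmrk2 (0.0713) and Xirp1 (0.144) did not.

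**Figure D4:**
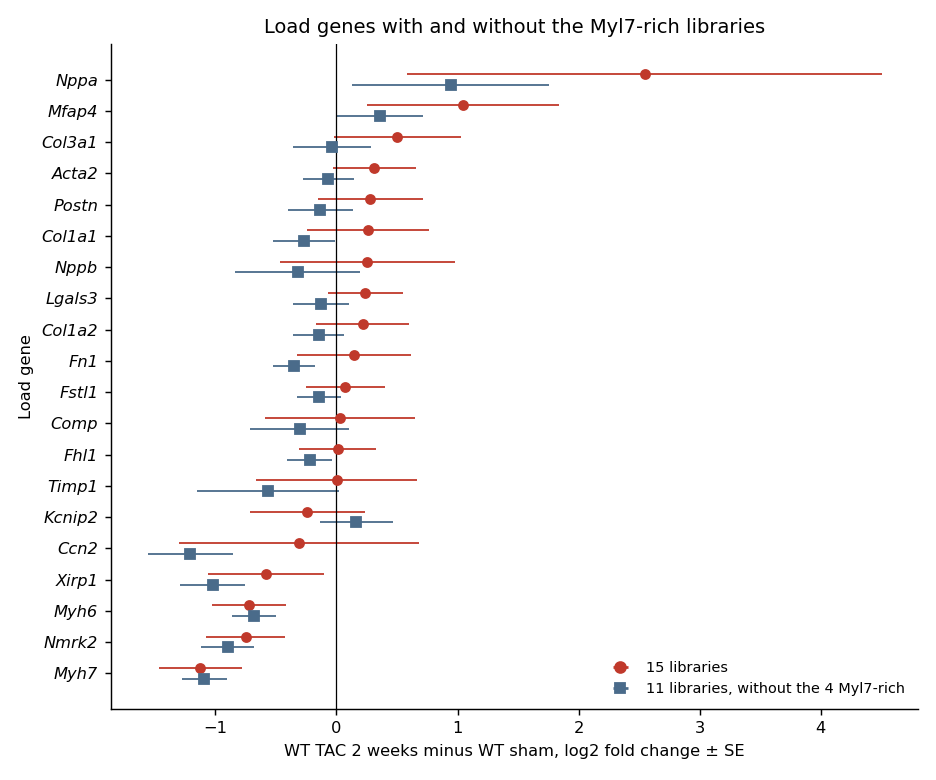
Log2 fold change between WT TAC and WT sham at 2 weeks, with its SE, for the 20 load genes whose sign, call or value changed when the Myl7-rich libraries were left out; circles are the fit of 15 libraries and squares the fit of 11. Nppa moves from 2.54 to 0.94, the collagen genes move from above to below 0, and Myh7 keeps its value of about -1.1 with a smaller SE. The library labelled WT TAC 1 is the only Myl7-rich one in this comparison, so each move of value comes from leaving it out.

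Over all genes, 1202 of 14618 passed in this comparison without the 4 libraries, 120 higher (0.821%) and 1082 lower (7.40%), with a median fold change of -0.18. With rescaled TPM and the same 11 libraries 324 passed, 190 higher and 134 lower, and 232 of the 1202 passed in the same direction. Of the 173 genes higher in every Myl7-rich library, 137 were tested in this fit, and 3 passed. Of the 759 lower genes, 32 passed. Leaving out single libraries separated them: without the library labelled WT TAC 1 alone 0 genes passed, and without VCP TG sham 4, which enters this comparison only through the shared estimate of the spread and the filter on low values, 917 did. With Myl7-rich as a covariate 0 passed, and in a fit of the 8 libraries labelled WT, among them the library labelled WT TAC 1, 964 did, against 423 without that library. VCP TG sham 4 is the library with 72.9% mitochondrial TPM, and the part of that share in the number of calls was not tested.

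In the comparison of VCP TG TAC with VCP TG sham both groups hold Myl7-rich libraries. Here 120 of 15540 genes passed, 119 higher (0.766%) and 1 lower (0.00644%), and 719 of 14618 did without the 4 libraries, 701 higher (4.80%) and 18 lower (0.123%). Without the 4, only VCP TG TAC 1 and 3 are set against VCP TG sham 1 and 2. With Myl7-rich as a covariate 113 were higher (0.727%) and 2 lower (0.0129%). No load gene passed in either fit. Nppa differed by -0.47 ± 2.12 with all libraries and by 0.58 ± 1.07 without the Myl7-rich ones, and Mfap4 by -0.45 ± 0.86 and 0.24 ± 0.46. Kcnip2 differed by -0.50 ± 0.52 and by -1.22 ± 0.40 (adjusted p = 0.123), and on rescaled TPM without the 4 libraries by -1.31 (limma adjusted p = 0.0391). This rescaled fit was chosen after seeing the data. It rests on 41.3 and 49.5 TPM in VCP TG TAC 1 and 3 against 142 and 91.3 TPM in VCP TG sham 1 and 2. The Vcp level of VCP TG sham 1 did not stand apart from the libraries labelled WT. The sign changed for 7 of 45 load genes, against 21.1% of all genes tested in both fits. Olfactory and vomeronasal receptor genes averaged 0.842 and 0.448 TPM in VCP TG TAC 1 and 3, against 0.0443 to 0.310 TPM in the other 2-week libraries. Genes above 0 TPM numbered 27505 and 26147 in VCP TG TAC 1 and 3, against 19479 to 25417 in the others. The part of these low-level values in the number of higher calls was not tested.

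The comparison of VCP TG sham with WT sham sets 2 Myl7-rich libraries against none. No gene passed an adjusted p of 0.05 in the limma fit with all libraries or without the 4 Myl7-rich ones (0% in each direction), with 616 and 1279 genes at an unadjusted p under 0.05. Nppa differed by 3.16 ± 1.96 with all libraries and by 0.56 ± 0.92 without the Myl7-rich ones, and Mfap4 by 0.70 ± 0.79 and -0.36 ± 0.40. Comp went from 0.31 ± 0.62 to -0.44 ± 0.46, Ccn2 from 0.51 ± 0.99 to -0.33 ± 0.40 and Kcnip2 from -0.46 ± 0.48 to 0.38 ± 0.34. The sign changed for 12 of 45 load genes, a share below the 29.7% of all genes tested in both fits.

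Between VCP TG TAC and WT TAC, which hold 1 Myl7-rich library each, no load gene moved by more than 0.58 when the 4 libraries were left out, and 10 of 45 changed sign, against 9.47% of all genes tested in both fits. Of all genes 14 passed with all libraries, 14 higher (0.0901%) and 0 lower, and 640 without the 4, 629 higher (4.30%) and 11 lower (0.0752%). With rescaled TPM and without the 4 libraries 5 passed. Olfactory and vomeronasal receptor genes were highest in VCP TG TAC 1 and 3, as given above, and the part of this in the higher calls was not tested.

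The 5-week table was read for the same genes, as libraries that the choice did not use. Myl7 stood at 1.07, 33.1, 104 and 4.16 TPM in the libraries labelled WT TAC 1 to 4 and at 33.1, 37.2 and 0.671 TPM in those labelled VCP TG TAC 1 to 3, so no 5-week library reached 300 TPM. The values fell into separate clusters, 4 libraries above 30 TPM and 3 below 5 TPM, and no correlation was computed. Of 19 tested genes among the 25 named higher ones, 10 lay higher in the 4 libraries than in the rest of the group in both groups, where 8.07% of 13986 genes did. Myl7, which set the split, is among the 10. Of the 15 named lower genes 1 lay lower, where 0.958% of genes did. Myl4 at 16.8 to 63.9 TPM against 1.98 to 3.64 TPM, and Hamp at 5.602 to 36.9 TPM against 0 to 2.52 TPM, were among the higher ones. The same 4 libraries also held the higher Vcp levels, 107 to 123 TPM against 39.1 to 62.2 TPM. Vcp thus went against the genotype label in 3 of the 7 libraries, those labelled WT TAC 2 and 3 and VCP TG TAC 3, so Myl7, Vcp and the labels cannot be told apart there and no genotype difference is drawn at 5 weeks.

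Nppa was not among the genes higher in these 4 libraries at 5 weeks, and Bmp10 was too low there to be tested. Nppa stood at 235, 376, 106 and 16.5 TPM in WT TAC and at 48.2, 105 and 6.13 TPM in VCP TG TAC, and WT TAC 1 held 235 TPM with only 1.07 TPM of Myl7. Bmp10 was at 0 to 0.332 TPM in all 7 libraries. Nppb, at 323 TPM in the same WT TAC 1, and Ankrd1, at 1749 TPM, were high there as well. At 2 weeks no library with Myl7 under 100 TPM held more than 95.5 TPM of Nppa.

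**Figure D5:**
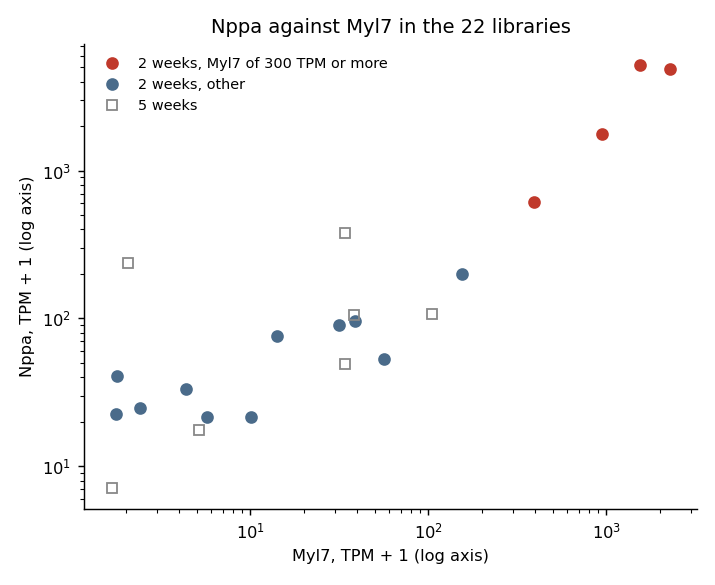
Nppa against Myl7 in all 22 libraries, in TPM + 1 on log axes, with 1 point per library. At 2 weeks Nppa is over 600 TPM in the 4 Myl7-rich libraries and below 200 TPM in the other 11, while at 5 weeks WT TAC 1 holds 235 TPM of Nppa at 1.07 TPM of Myl7.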

How the data were processed

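RNA of left ventricle was sequenced with a stranded poly(A) kit, per the labels' protocols. The authors deposited 2 tables of TPM values, of 15 and 7 libraries and 30735 genes each. The submitters' processing notes name Trimmomatic 0.35, kallisto 0.43.1, STAR 2.5.4b, DESeq2 and build GRCm38, without roles. Each library sums to 1000000 TPM, so its depth is unknown and a high mitochondrial share lowers all other genes. Symbols and coordinates came from GENCODE M21, which held 30074 of the genes.

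Libraries were grouped by their labels. Genes that reached 1 TPM in 3 or more libraries were analysed as log2(TPM + 1), which understates changes of low genes. The labelled comparisons were fitted over all 2-week groups with limma 3.58.1 (R 4.3.3; trend and robust moderation), adjusted by Benjamini-Hochberg at 0.05. Both procedures were tested on simulated data. The p-values measure the spread between libraries, which may be technical. Library pairs with identical values numbered 0.

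The 4 libraries, 17 gene lists and the tests were chosen with earlier results of these data known. Named genes were Myl7, Myl4 and Sln; members of the lists; the 25 higher and 15 lower genes with the largest mean difference (mean of at least 1 TPM, no predicted names); the 10 most like Myl7; and load genes whose sign, call or value (by over 0.58) changed without the Myl7-rich libraries. In VCP TG sham against WT sham, libraries with the same replicate number deviated together (correlations 0.107 to 0.26), and differently numbered libraries were not compared. The numbers were treated as a possible pairing there and not in the other comparisons. No label states a pairing, and the main fits hold no block. Alternatives were other scalings, filters, pseudocounts (0.1), covariates and left-out libraries, and the counts of the lists on the other scales were added after seeing the data. Some genes that the rule names are not reported here.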

Additional observations from a re-analysis of the deposited data

Results flagged for a closer look

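In 19 genes whose values are given by library, each group of 4 was checked for a library far from the other 3 on the log2(TPM + 1) scale, by a gap above 0.829 of the group's range. Of 76 groups, 8 were marked. The genes were picked with their values known, so this count is not set against a chance rate.

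The library labelled WT TAC 1 was marked for 5 genes. It held 190 TPM of Mybphl against 0.292 to 1.89 in its group, 3069 TPM of Myl2 against 4953 to 5311, 867 TPM of Myl3 against 1709 to 1805, 1840 TPM of Ankrd1 against 690 to 801, and 119 TPM of Vcp against 47.7 to 50.3. VCP TG sham 3 was marked for Ccn2, with 435 TPM against 29.7 to 40.6. At 5 weeks WT TAC 1, which is low in Myl7, was marked for Kcnip2, with 57.0 TPM against 24.3 to 26.9. WT sham 4 was marked for Bmp10, with 0 TPM against 0.0457 to 0.0541, all near the lower end of the scale.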

How the results depend on the processing

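TPM give no depth, so counting error is unknown, and 4 libraries limit every pattern here. All 25 named higher and 15 named lower genes kept their sign in the alternatives run; of 560 values under alternatives 25 moved by more than the SD over groups.

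Counts of genes higher and lower in every Myl7-rich library (173 and 759) became 1517 and 112 at a Myl7 threshold of 500 TPM, 726 and 443 after rescaling, 29 and 3 with a margin of 0.58, and 665 higher after quantile normalization. Without the WT TAC group, an alternative chosen after seeing the data, 1385 were lower. Leaving out 1 library gave 177 to 1536 higher and 778 to 1854 lower: 1536, 287 and 268 higher without VCP TG sham replicates 4 and 1 and VCP TG TAC replicate 1, and 1854 lower without VCP TG sham replicate 3.

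WT TAC against WT sham (0 called) gave 1202 without the 4 Myl7-rich libraries, 964 with only the 2 groups and 423 with both, 8 with a pseudocount of 0.1, 6 after rescaling and 2 after quantile normalization. Alternatives chosen after seeing the data gave 324 (rescaled, without the 4), 5 (rescaled, covariate) and 1755 (without both Myl7-rich sham libraries). Leaving out 1 library gave 0 to 917: 917 without VCP TG sham replicate 4, 19 without VCP TG sham replicate 3, 3 without VCP TG TAC replicate 2 and 1 without any of WT sham 1, WT sham 4 and VCP TG sham 2.

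VCP TG TAC against VCP TG sham (120 called) gave 719, 53 and 503 for the same 3 choices, 2 with the pseudocount, 1846 without a filter and 314 after rescaling, then 1024, 275 and 641. Leaving out 1 library gave 1 to 753: 753 without VCP TG sham replicate 3, 196 without VCP TG TAC replicate 2, 43 and 40 without WT sham replicates 4 and 2, 29, 13 and 11 without VCP TG sham replicates 4, 1 and 2, and 8 and 1 without VCP TG TAC replicates 3 and 1.

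VCP TG against WT sham (0 called) gave 2 with only the 2 groups, and 1 when these lacked the Myl7-rich libraries, with the pseudocount, and without VCP TG sham replicate 4 (0 to 1 over left-out libraries). VCP TG against WT TAC (14 called) gave 640 without the 4, 8 and 884 with only the 2 groups, 1 with the pseudocount, 634 without a filter, 9 after quantile normalization, then 5 (rescaled, without the 4) and 541 (without both Myl7-rich sham libraries). Leaving out 1 library gave 1 to 330: 330 when VCP TG sham 3 was left out, 8 for WT sham 4 or WT TAC 2, 4 and 1 without VCP TG TAC replicates 3 and 1. The cause of these changes was not tested.

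With the replicate number as a block, 2, 102, 0 and 5 genes passed in these 4 comparisons. The numbers were treated as a possible pairing only in the sham comparison. The block was fitted over all groups at once and changed no call there. The 5-week correlation and its alternatives were not run, because Myl7 fell into separate clusters.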

Other observations

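The genes that were high in VCP TG sham 3 and in the library labelled WT TAC 1 included endocardial and endothelial markers that, on TPM as deposited, were not higher in all 4 Myl7-rich libraries. On both other scales Plvap and Npr3 were higher in every Myl7-rich library than in the others of its group. Plvap, a protein of fenestrated endothelium, stood at 29.8 and 21.1 TPM in these 2 libraries and at 3.36 and 10.1 TPM in VCP TG sham 4 and VCP TG TAC 2, against 0.833 to 4.86 TPM in the 11 others. Npr3, the natriuretic peptide clearance receptor of endocardium, stood at 20.7 and 21.3 TPM, then 6.25 and 13.3 TPM, against 2.83 to 7.33 TPM. After rescaling without the mitochondrial genes Plvap stood at 12.4 TPM and Npr3 at 23.0 TPM in VCP TG sham 4, against at most 9.79 and 12.8 TPM in the 11 others. The endothelial genes Cdh5 and Ly6c1 had mean within-group differences of -0.36 and -0.58.

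Among genes of the conduction system, Tbx3, a transcription factor of the nodes, was lower in every Myl7-rich library, with a mean within-group difference of -0.61, and Hcn4, the pacemaker channel, stood at 0.438 to 1.93 TPM in the Myl7-rich libraries and 0.879 to 3.54 TPM in the others. Among nerve genes, Dbh, which makes noradrenaline, was higher by 0.81, and overlapped after rescaling and after quantile normalization.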
